A study of Mus musculus with 9 samples.

Results

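Notch signalling genes were examined in mouse ovaries that carry, or do not carry, the C134W change in Foxl2, the forkhead factor that keeps granulosa cells in their identity. The genes were 3 receptors (Notch1, Notch2 and Notch3), 3 ligands (Jag1, Jag2 and Dll4) and 4 target genes (Hes1, Hey1, Hey2 and Heyl), taken by name from 55536 genes listed by identifier. All 10 were among the 16213 genes that passed the low-count filter. RNA-seq of dissected ovaries gave 9 libraries in 3 groups of 3. Wild-type ovaries carried 2 unmutated alleles (genotype FOXL2 WT/WT), while hyperplastic ovaries and granulosa cell tumours both came from heterozygous mice (FOXL2 WT/C134W). Hyperplasia and tumour therefore share the genotype and differ by the labelled disease state. Age, strain and how the allele was made are not given in the sources used here. Whether each library is from its own animal is not stated; hyperplasia library 3 and tumour library 3 share the stem of their titles. P-values therefore measure only the spread between these samples. The series asks which genes differ between these tumours and normal ovaries.

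Notch receptors sit on the cell surface and are activated by ligands of the Jagged and Delta families on a neighbouring cell. Activation releases the intracellular part of the receptor by cleavage through ADAM proteases and gamma-secretase, and this part joins the DNA-binding protein RBPJ to switch on genes such as those of the Hes and Hey families, which encode transcriptional repressors. In the ovary the pathway is known for contact between oocyte and granulosa cells, in which Jag1 and Notch2 take part, and for blood vessels, where Dll4 and Notch1 act in endothelium and Notch3 and Heyl are found in mural cells.

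Promoters are shown for the 2 genes whose tumour libraries all lay below both other groups, Notch3 and Jag2, and for Hey2, the only one of the matched promoters that held the RBPJ core. Promoter sequences came from RefSeq (GRCm38.p6), cover 250 bases before to 50 bases after the annotated start and were found for 7 of the 10 genes. No entry was found for Hes1, Hey1 and Heyl. Capitals mark the RBPJ core TGGGAA, searched on both strands and printed as TTCCCA on the opposite strand.

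Notch3, chr17:32166841-32167140, minus strand: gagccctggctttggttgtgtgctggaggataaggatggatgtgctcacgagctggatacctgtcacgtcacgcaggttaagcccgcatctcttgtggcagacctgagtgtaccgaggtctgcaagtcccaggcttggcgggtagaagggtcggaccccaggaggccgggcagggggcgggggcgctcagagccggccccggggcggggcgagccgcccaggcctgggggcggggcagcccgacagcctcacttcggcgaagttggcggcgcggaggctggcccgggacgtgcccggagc

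Jag2, chr12:112929446-112929745, minus strand: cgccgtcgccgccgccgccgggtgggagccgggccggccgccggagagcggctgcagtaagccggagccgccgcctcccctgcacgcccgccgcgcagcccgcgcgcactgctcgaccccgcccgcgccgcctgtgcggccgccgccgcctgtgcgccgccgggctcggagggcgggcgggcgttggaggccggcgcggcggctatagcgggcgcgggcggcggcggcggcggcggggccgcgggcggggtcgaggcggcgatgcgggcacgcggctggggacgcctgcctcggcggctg

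Hey2, chr10:30842734-30843033, minus strand: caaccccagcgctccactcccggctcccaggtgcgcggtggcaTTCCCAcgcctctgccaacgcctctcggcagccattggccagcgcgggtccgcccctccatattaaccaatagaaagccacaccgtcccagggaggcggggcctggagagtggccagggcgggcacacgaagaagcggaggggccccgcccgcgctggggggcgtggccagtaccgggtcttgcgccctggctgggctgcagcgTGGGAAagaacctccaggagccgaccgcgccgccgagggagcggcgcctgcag

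The Hey2 promoter held the core 2 times, beginning 207 bases before the start on the opposite strand and 3 bases before the start on the gene's own strand. Of all 32851 promoters of this length, 25.6% held the core at least once and 3.8% held it 2 or more times. A forkhead core (TAAACA, both strands, in 13.4% of all promoters) and GTCAAGG, part of a FOXL2 response element (both strands, in 3.2% of them), were not in any of the 7 windows, which says only that these letters are not there. The promoter of Jag2 was 86.0% G and C, that of Hey2 72.0% and that of Notch3 70.0%.

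Libraries held 11661820 to 20890487 counts on genes. Levels are in CPM, counts relative to the library total after TMM scaling, and group values are means with SD over 3 libraries. Levels of different genes are compared only in TPM, the transcript-based unit of the deposited tables, which take account of length. Foxl2 itself was read in all 9 libraries at 129 to 388 CPM, and gene counts cannot show the mutated base. All tumours (227 to 388 CPM) lay above all wild types (146 to 203 CPM), with a log2 fold change of 0.74 that did not pass the test (edgeR quasi-likelihood, Benjamini-Hochberg adjusted p = 0.298). Granulosa cell markers were present in every library, with 8 of 8 tested and a summed level of 937 to 4642 CPM. Of these, Fshr, the receptor for follicle-stimulating hormone, had 0 counts in tumour library 2, and the 6 surface epithelium markers summed to 1.37 CPM there against 211 to 1698 CPM in the other 8 libraries.

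The libraries that lay farthest from their groups were wild-type library 1 and tumour library 2, and length moved with both. Across genes, the deviation of wild-type library 1 from the mean of the other 8 had a rank correlation of −0.59 with transcript length, that of tumour library 2 −0.27, and those of the other 7 libraries 0.07 to 0.38. The 3 receptors have long transcripts: Notch2 averaged 10474 bases in the deposited tables, Notch1 8974 and Notch3 7255, longer than 99.3%, 98.6% and 96.7% of the genes tested. In wild-type library 1, Notch2 lay 1.66 log2 units below the mean of the other wild types, where 106 genes within 10% of its length had a median of −1.17 (10th to 90th percentile −2.06 to −0.43). Notch1 lay at −1.41, with a median of −1.21 for 185 genes of like length, and Notch3 at −1.30, with a median of −1.08 for 389 genes. The short target Hes1, 1367 bases, lay at 1.28 in the same library, with a median of 0.53 for its 1121 neighbours in length, and Hey1 at 1.48, with a median of 0.09 (differences on log2(CPM + 0.5)). What part length has in the values below was not tested beyond 2 checks, a fit that takes each library's length trend into account and a fit without both libraries; values from them are given for the receptors, Jag1, Jag2 and Hes1, and for Heyl without both libraries.

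**Figure D1:**
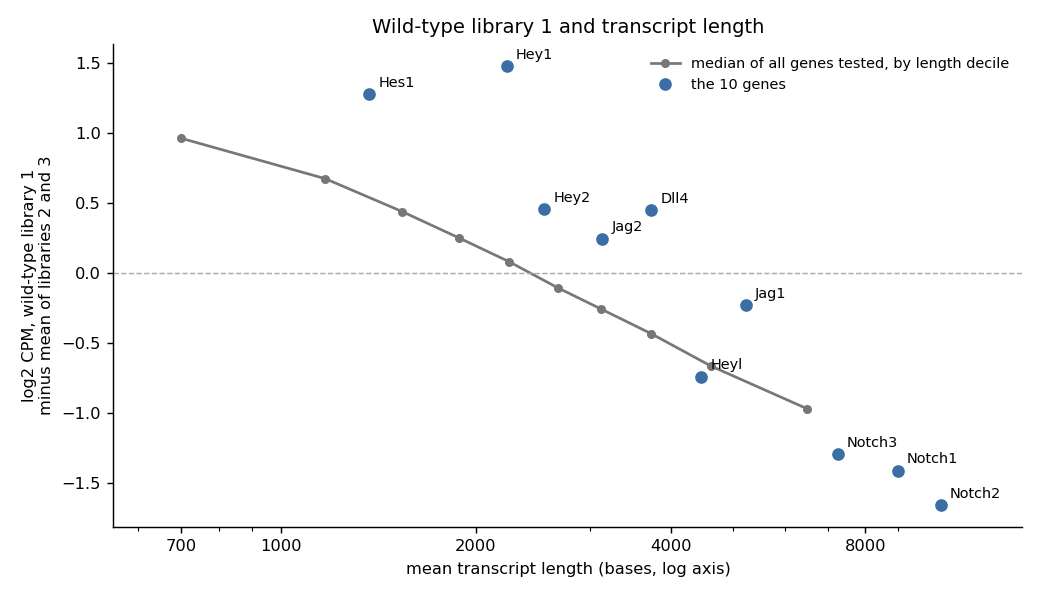
Difference in log2 CPM between wild-type library 1 and the mean of wild-type libraries 2 and 3 (vertical axis) against mean transcript length in bases (horizontal log axis). Grey points are medians over the genes tested in each length decile, from 0.96 in the shortest to −0.97 in the longest; blue points are the 10 genes, with Notch1, Notch2 and Notch3 at the lower right.

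None of the 10 genes passed the threshold in any of the 3 comparisons (the quasi-likelihood test of edgeR, here edgeR QL, with p-values adjusted by the Benjamini-Hochberg method over all genes tested and a threshold of 0.05). Against wild type, the tumours had Notch3 and Jag2 lower and Notch2 higher with no overlap between groups, and Heyl ran from the lowest to the highest of its 9 levels. For tumour against wild type edgeR QL called 1.6% of the genes tested, for tumour against hyperplasia 0.185% and for hyperplasia against wild type 0%. At an unadjusted p under 0.05 there were 3 of the 10 for tumour against wild type, where 20.1% of all genes had one: Heyl was higher (8.41% of all genes were), and Notch3 and Jag2 were lower (11.7%). With no overlap between the groups there were 3 of the 10 beside 24.1% of all genes for tumour against wild type, where Notch2 was higher (10.6% of all genes) and Notch3 and Jag2 were lower (13.4%). There were 5 of the 10 beside 21.9% for tumour against hyperplasia, where Notch2 was higher (9.54%) and Notch1, Notch3, Jag1 and Jag2 were lower (12.4%). There were 2 of the 10 beside 9.81% for hyperplasia against wild type, where Jag1 was higher (4.63%) and Jag2 lower (5.18%). At an unadjusted p under 0.05 the corresponding numbers were 4 of 10 (Notch1, Notch3, Jag1 and Jag2, all lower, as were 9.39% of all genes) beside 14.1% for tumour against hyperplasia, and 0 of 10 beside 3.53% for hyperplasia against wild type. The DESeq2 Wald test called 3 of the 10 in tumour against wild type (Notch3, Jag2 and Heyl), where it called 10.9% of all genes with an adjusted p. It called 0 of the 10 for tumour against hyperplasia, beside 5.07% of all genes, and 0 for hyperplasia against wild type, beside 0.112%. With limma-voom 0 of the 10 were called in all 3 comparisons, beside 1.67% of all genes for tumour against wild type, 0.0247% for tumour against hyperplasia and 0% for hyperplasia against wild type. For tumour against wild type, edgeR QL without the low-count filter called 1 of the 10 (Jag2) beside 2.5% of all genes. With length-trend offsets it called the same gene beside 3.46%, and without hyperplasia library 3 it called 0 of the 10 beside 2.43%. Comparisons of hyperplasia and of tumours with wild type share the same 3 wild-type libraries.

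**Figure D2:**
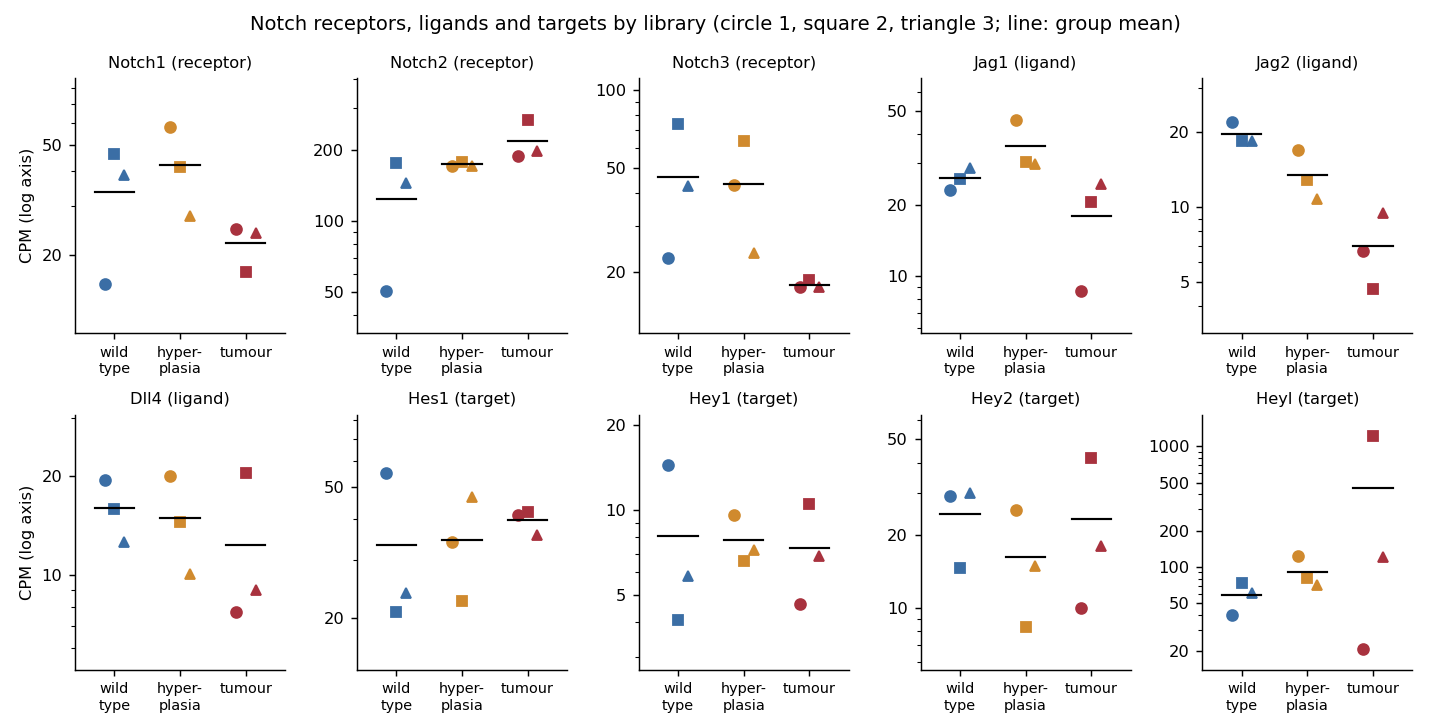
Level of each gene in CPM (vertical log axes, a scale for each panel) in the 3 wild-type, 3 hyperplasia and 3 tumour libraries; circles, squares and triangles are libraries 1, 2 and 3 and black lines are group means. Jag2 falls in separate bands by group, Notch3 is low in all 3 tumours (17.4 to 18.5 CPM), and Heyl is at 1213 CPM in tumour library 2 alone.

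Notch2 (ENSMUSG00000027878, GRCm38 chr3:98013527-98150361, plus strand), the receptor known in granulosa cells and elsewhere, was read at 50.5, 176 and 146 CPM in wild-type libraries 1, 2 and 3, at 171, 179 and 171 CPM in the hyperplasias and at 188, 268 and 198 CPM in tumours. All 3 tumours lay above all 6 other libraries, by a narrow margin over hyperplasia library 2, and wild-type library 1 lay far below the rest. Group levels were 124 ± 65.7, 174 ± 4.31 and 218 ± 43.3 CPM (SD, n = 3). The log2 fold change was 0.81 (SE 0.40, 95% interval −0.08 to 1.71) for tumour against wild type (edgeR QL adjusted p = 0.293). Against hyperplasia it was 0.33 (SE 0.39), and hyperplasia differed from wild type by 0.49 (SE 0.40). Single libraries moved both values by over 1.5 times. Tumour against hyperplasia was 0.15 without tumour library 2, and hyperplasia against wild type was 0.11 without wild-type library 1 and 0.83 without wild-type library 2. For tumour against wild type it was 0.44 without wild-type library 1, and 0.24 without both that library and tumour library 2, so these libraries move the value by over 1.5 times. With the length trend taken into account it was 1.13 (edgeR QL adjusted p = 0.0766), and tumour against hyperplasia was 0.76. In TPM, which are scaled differently, tumours (27.7, 24.6 and 31.2 TPM) overlapped with wild type (5.33, 29.2 and 23.7 TPM) and with hyperplasia (27.9, 29.0 and 26.4 TPM), and the difference between tumours and hyperplasia was −0.0022 on the log2(TPM + 1) scale.

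Notch3 (ENSMUSG00000038146, chr17:32120820-32166852, minus strand), the receptor of mural cells around vessels, stood at 22.5, 73.8 and 42.6 CPM in the wild types, 42.9, 63.6 and 23.6 CPM in the hyperplasias and 17.4, 18.5 and 17.5 CPM in tumours. The 3 tumours were close to each other and below all 6 other libraries. Tumours differed from wild type by −1.38 on the log2 scale (SE 0.46, 95% interval −2.41 to −0.35), 2.6-fold lower, which did not pass (edgeR QL adjusted p = 0.138; range over alternatives 0.0463 to 0.359). The difference from hyperplasia was −1.28 (SE 0.46, edgeR QL adjusted p = 0.266), and between hyperplasia and wild type it was −0.10 (SE 0.45), a sign that turned in several alternatives. Without wild-type library 1, the lowest of the wild types, the difference of tumours from wild type was −1.71, and without wild-type library 2, the highest, −0.89. With the length trend taken into account it was −1.25, and without both wild-type library 1 and tumour library 2 it was −1.76. The DESeq2 Wald test, which called Notch3 for tumour against wild type, gave an adjusted p of 0.0463.

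Notch1 (ENSMUSG00000026923, chr2:26457903-26516663, minus strand), which acts in endothelium as well as in other cells, was read at 15.6, 46.4 and 38.8 CPM in the wild types, 57.8, 41.4 and 27.5 CPM in the hyperplasias and 24.8, 17.4 and 23.9 CPM in tumours. All tumours lay below all hyperplasia libraries, but wild-type library 1 was the lowest of the 9. Log2 fold changes were −0.94 (SE 0.42) for tumour against hyperplasia (edgeR QL adjusted p = 0.353) and −0.61 (SE 0.41) for tumour against wild type (edgeR QL adjusted p = 0.454). Without wild-type library 1 the latter was −0.95, over 1.5 times as large, and without wild-type library 2 it was −0.32; neither passed. With the length trend taken into account, tumour against hyperplasia was −0.61, over 1.5 times smaller, and tumour against wild type was −0.46. Other gene models overlap Notch1, among them 0610009E02Rik on the opposite strand, and reached at most 6.81 CPM. The library kit keeps strand, but no source used here gives the strand setting of the counting, so signal of these models and of Notch1 may not be told apart.

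The make-up of the receptor transcripts was described next. As a share of the summed TPM of Notch1, Notch2, Notch3 and Notch4, Notch2 made up 25.6%, 46.1% and 46.6% in the wild types, 49.1%, 48.6% and 58.2% in hyperplasia and 70.7%, 73.3% and 74.4% in tumours. The 3 groups did not overlap in this share. Notch3 made up 19.1%, 28.8% and 21.2% of the receptor transcripts in the wild types, 18.3%, 25.0% and 12.8% in hyperplasia and 8.55%, 6.66% and 8.62% in tumours. All tumours lay below all other libraries in this share. The sum itself was 44.98 ± 21.8 TPM in the wild types, 53.96 ± 7.53 TPM in hyperplasia and 38.2 ± 4.21 TPM in tumours (SD, n = 3). The ratio of Notch2 to Notch3 in TPM was 1.34 to 2.20 in the wild types, 1.95 to 4.53 in hyperplasia and 8.27 to 11 in tumours. Notch4, a receptor of endothelium, took 46.4% in wild-type library 1 and 7.07% to 16.7% in the other 8 libraries. Wild-type library 1 had the lowest Notch2 share, and tumours exceeded the other wild types as well. These shares come from the authors' TPM, were not tested and rest on genes chosen by name.

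**Figure D3:**
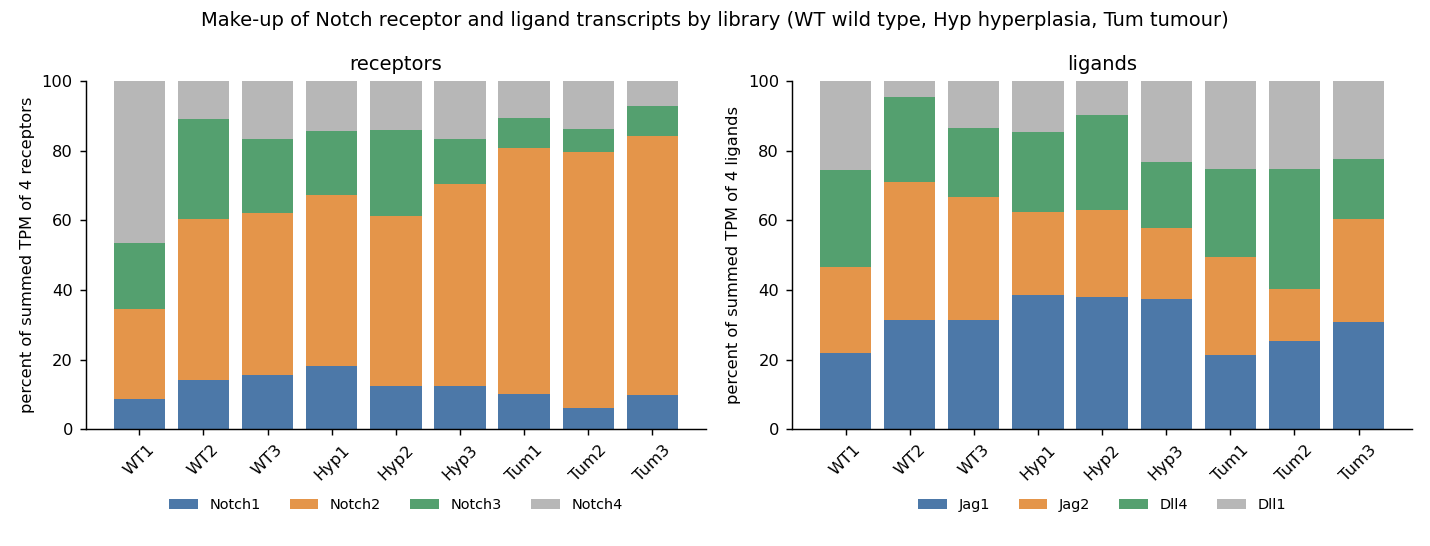
Percent of the summed TPM of 4 receptors (left) and 4 ligands (right) in each library, stacked to 100; WT, Hyp and Tum are wild type, hyperplasia and tumour with the library number. The Notch2 segment takes 70.7% to 74.4% of receptor transcripts in tumours and at most 46.6% in wild type.

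Jag2 (ENSMUSG00000002799, chr12:112907819-112929776, minus strand), a Jagged-family ligand, was the gene closest to the threshold. Its levels were 21.9, 18.4 and 18.5 CPM in the wild types, 17.0, 12.8 and 10.7 CPM in the hyperplasias and 6.69, 4.68 and 9.49 CPM in tumours. Every hyperplasia library lay below every wild-type library, and every tumour below every hyperplasia library. Group means were 19.6 ± 2.03, 13.5 ± 3.17 and 6.95 ± 2.42 CPM (SD, n = 3). Tumours differed from wild type by −1.49 (SE 0.32, 95% interval −2.22 to −0.77), 2.81-fold lower (edgeR QL adjusted p = 0.0569). Tumours differed from hyperplasia by −0.96 (SE 0.32, edgeR QL adjusted p = 0.245) and hyperplasia from wild type by −0.54 (SE 0.31, edgeR QL adjusted p = 0.999). For tumour against wild type, Jag2 passed with the DESeq2 Wald test (adjusted p = 4.48e-04), without the low-count filter (edgeR QL adjusted p = 0.042) and with the length trend taken into account (edgeR QL adjusted p = 0.0412). Over all its alternatives the adjusted p ran from 4.48e-04 to 0.344. In TPM the groups overlapped, with 5.32, 12.5 and 10.6 TPM in the wild types and 3.63, 2.41 and 7.03 TPM in tumours.

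Jag1 (ENSMUSG00000027276, chr2:137081456-137116644, minus strand), the ligand known in oocytes and also found in somatic cells, stood at 23.2, 25.9 and 28.8 CPM in the wild types, 45.8, 30.5 and 29.9 CPM in the hyperplasias and 8.61, 20.7 and 24.5 CPM in tumours. All hyperplasia libraries lay above all wild types, by a small margin for 2 of them, and tumours overlapped with wild type. The difference between tumours and hyperplasia was −0.98 (SE 0.37, edgeR QL adjusted p = 0.288), that between hyperplasia and wild type 0.45 (SE 0.37, edgeR QL adjusted p = 0.999) and that between tumours and wild type −0.54 (SE 0.37, edgeR QL adjusted p = 0.459). Tumour library 1 alone lay far below the others, and without it tumours differed from wild type by −0.20 and from hyperplasia by −0.65. Without tumour library 3, tumour against wild type was −0.83. Hyperplasia against wild type was 0.22 without hyperplasia library 1, the highest, and 0.22 with the length trend taken into account, where tumour against wild type was −0.59. The summed level of 8 oocyte markers differed by disease state, with 115 to 151 CPM in the wild types, 3.21 to 69.1 CPM in the hyperplasias and 1.85 to 4.97 CPM in tumours, where 3 of them had 0 counts in all libraries. Of 7 oocyte markers tested, 3 were called lower in tumours than in wild type (edgeR QL). Hyperplasia library 3, with 3.21 CPM of oocyte markers, held 29.9 CPM of Jag1, where the highest wild type held 28.8 CPM. Tumours, with 1.85 to 4.97 CPM of these markers, held 8.61 to 24.5 CPM of Jag1, below that wild type. The part of oocytes in the level of Jag1 was not tested further.

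Dll4 (ENSMUSG00000027314, chr2:119325784-119335962, plus strand), the Delta-family ligand of growing vessels, was read at 19.5, 15.8 and 12.6 CPM in the wild types, 20.02, 14.5 and 10.1 CPM in the hyperplasias and 7.75, 20.4 and 8.99 CPM in tumours. In CPM the groups overlapped, and the highest and the lowest values of the 9 were both in tumours. In TPM, which are scaled differently, the highest value was in hyperplasia library 1, and all tumours lay below all wild types. The log2 fold change of tumours against wild type was −0.37 (SE 0.42, 95% interval −1.32 to 0.58, edgeR QL adjusted p = 0.673), and from −0.93 without tumour library 2 to −0.12 without tumour library 1. Pecam1, an adhesion molecule of endothelium, stood at 126 CPM in tumour library 2 and at 29.1 and 32.3 CPM in tumour libraries 1 and 3. The 10 endothelial markers together summed to 367, 606 and 373 CPM in tumour libraries 1, 2 and 3. The ratio of Dll4 to Pecam1 in TPM lay between 0.135 and 0.227 in all 9 libraries. Pecam1 was among the 3 genes most like Dll4, so this narrow range is no separate evidence on endothelium. The part of endothelium in the level of Dll4 was not tested. Vegfa, the growth factor that acts on vessels, was the gene most like Dll4 over the 9 libraries (Pearson r = 0.98 on log2(CPM + 1), 0.98 at the lowest on leaving out 1 library), followed by Srsf2 and Pecam1.

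In ligand make-up, Jag1 took 37.5% to 38.5% of the summed TPM of Jag1, Jag2, Dll4 and Dll1 in hyperplasia, 21.8% to 31.5% in wild type and 21.3% to 30.7% in tumours. Jag2 took 24.8% to 39.8% in the wild types, 20.3% to 25.0% in hyperplasia and 15.2% to 29.5% in tumours, so its share overlapped. The summed ligand TPM was 27.7 ± 5.47 in the wild types, 30.3 ± 9.35 in hyperplasia and 17.6 ± 5.62 in tumours (SD, n = 3). Dll1, a Delta-family ligand outside the 10, was read at 9.20, 2.00 and 5.06 CPM in the wild types and at 5.96, 14.4 and 7.39 CPM in tumours, with overlap.

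**Figure D4:**
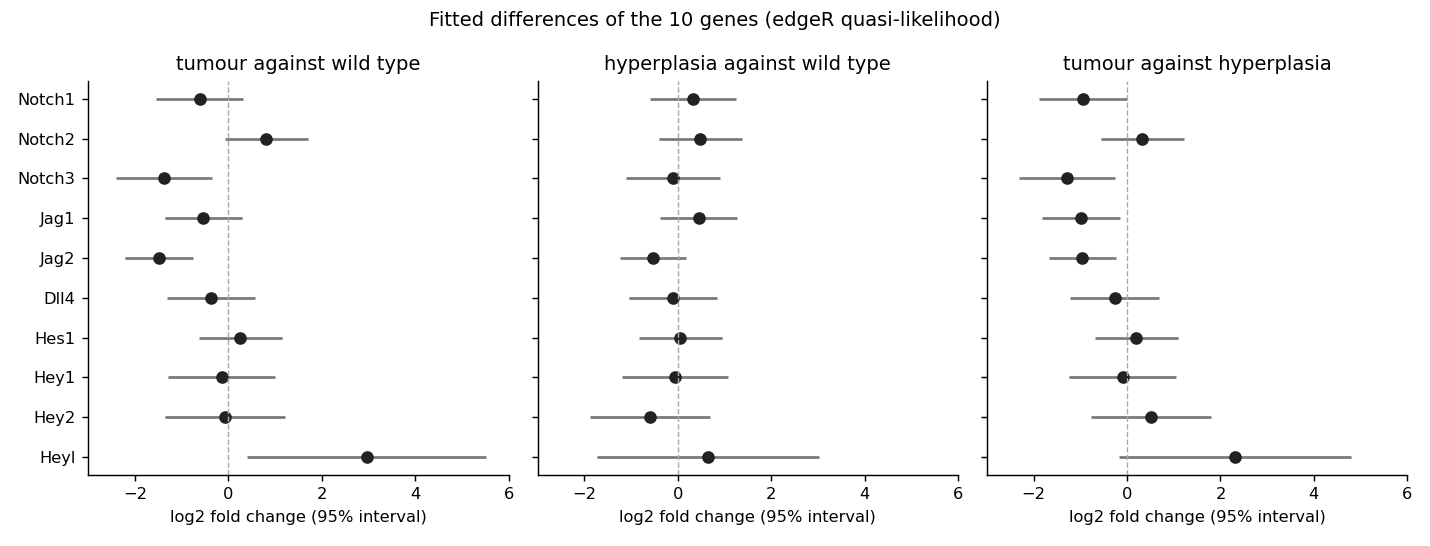
Fitted log2 fold change (points) with 95% interval (lines) for each of the 10 genes in the 3 comparisons, on a shared horizontal axis; the dashed line marks no difference. For tumour against wild type the intervals of Notch3, Jag2 and Heyl exclude 0 before adjustment, and the interval of Heyl is the widest (0.41 to 5.51).

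Among the targets, Hes1 (ENSMUSG00000022528, chr16:30064384-30067796, plus strand), the best known repressor induced by Notch, did not separate the groups. It was read at 55.0, 20.9 and 23.9 CPM in the wild types, 34.1, 22.5 and 46.6 CPM in the hyperplasias and 41.0, 41.9 and 35.8 CPM in tumours. Tumours were tightly grouped, while wild-type library 1 was the highest of all and the other wild types were among the 3 lowest. The log2 fold change of tumours against wild type was 0.25 (SE 0.40, 95% interval −0.64 to 1.14, edgeR QL adjusted p = 0.773), 0.82 without wild-type library 1, 0.06 without wild-type library 3 and −0.0062 without wild-type library 2. With the length trend taken into account it was 0.44, and without both wild-type library 1 and tumour library 2 it was 0.75. Hes1 is also induced by other pathways.

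Hey1 (ENSMUSG00000040289, chr3:8663359-8667256, minus strand), a Hey-family repressor of endothelium, was read at 14.5, 4.06 and 5.81 CPM in the wild types, 9.58, 6.59 and 7.24 CPM in the hyperplasias and 4.63, 10.5 and 6.89 CPM in tumours. The groups overlapped, with wild-type library 1 the highest and wild-type library 2 the lowest. Its fitted differences lay between −0.15 and −0.06 with SE 0.51, and their direction turned with the processing (edgeR QL adjusted p between 0.908 and 0.999).

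Hey2 (ENSMUSG00000019789, chr10:30832359-30842801, minus strand), a related repressor that acts in arterial cells and heart, was read at 29.0, 14.7 and 29.9 CPM in the wild types, 25.5, 8.33 and 14.95 CPM in the hyperplasias and 9.997, 41.9 and 18.1 CPM in tumours. Tumour library 2 had the highest level in CPM, though not in TPM, and tumour library 1 the second lowest. None of its differences passed (edgeR QL adjusted p between 0.724 and 0.999), and for tumour against wild type the value was −0.08 (SE 0.57, 95% interval −1.36 to 1.203) and −0.81 without tumour library 2. The genes most like Hey2 were Inhbb (r = 0.95), which encodes a subunit of activin B and inhibin B, Fst (r = 0.95), which encodes the activin-binding protein follistatin, and Tox2 (r = 0.94). Inhbb stood at 1069 CPM, Fst at 305 CPM and Tox2 at 353 CPM in tumour library 2, and at 48.3, 31.6 and 22.4 CPM in tumour library 1. Both Fst and Inhbb are granulosa cell genes, but they were picked by correlation with Hey2. The 8 granulosa cell markers, Fst among them, summed to 3864 CPM in tumour library 1 and 3881 CPM in tumour library 2. The part of granulosa cells in the level of Hey2 was not tested.

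Heyl (ENSMUSG00000032744, chr4:123233556-123249875, plus strand), a Hey-family target known in mural cells, varied most. Its levels were 39.8, 73.5 and 61.0 CPM in the wild types, 122, 81.1 and 70.3 CPM in the hyperplasias and 20.99, 1213 and 120 CPM in tumours. The lowest and the highest of the 9 values were both in tumours, and tumour library 2 was 9.94-fold above the next library and 16.9-fold above the median of the other 8. Of 12087 genes averaging 5 CPM or more, only 16 exceeded their other libraries by more in tumour library 2. The count behind the value was 12435. Tumours differed from wild type by 2.96 (SE 1.13, 95% interval 0.41 to 5.51), 7.76-fold higher, which did not pass (edgeR QL adjusted p = 0.189). Without tumour library 2 the difference was 0.28, and without that library and wild-type library 1 it was 0.05. Against hyperplasia the value was 2.31 (SE 1.102, edgeR QL adjusted p = 0.385), and −0.37 without tumour library 2, so its direction rests on that library. Hyperplasia differed from wild type by 0.65 (SE 1.06, edgeR QL adjusted p = 0.999), and the groups overlapped. The DESeq2 Wald test called Heyl for tumour against wild type (adjusted p = 0.0262).

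Genes most like Heyl were picked by correlation with its levels, so high values in tumour library 2 follow from that choice. Enc1, an actin-binding protein of the kelch family, was second in likeness to Heyl (r = 0.98, and 0.91 without tumour library 2) and stood at 1719 CPM there, at 35.4 and 160 CPM in the other tumours and at 64.6 to 225 CPM in the wild types and hyperplasia. Ppp2ca, a phosphatase subunit (r = 0.98), and Fitm2 (r = 0.97) were also most like Heyl, with r of 0.95 and 0.91 without tumour library 2. Notch3, the receptor that shares mural expression with Heyl, was at 18.5 CPM in tumour library 2, and the 10 mural and smooth muscle markers summed to 582 CPM there, the lowest of the 9. In tumour library 1, where Heyl was lowest (20.99 CPM), Notch3 was at 17.4 CPM and these markers summed to 595 CPM. The part of mural cells in the level of Heyl was not tested. In CPM, Notch2 (268 CPM), Dll4 (20.4 CPM) and Hey2 (41.9 CPM) had their highest values in tumour library 2, as Heyl did. In TPM, which are scaled differently, only Heyl of these genes was highest there, and Notch2 was the lowest of the tumours. Tumour library 2 held the highest CPM for 4 of these 10 genes and for 25.9% of the 12087 genes.

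**Figure D5:**
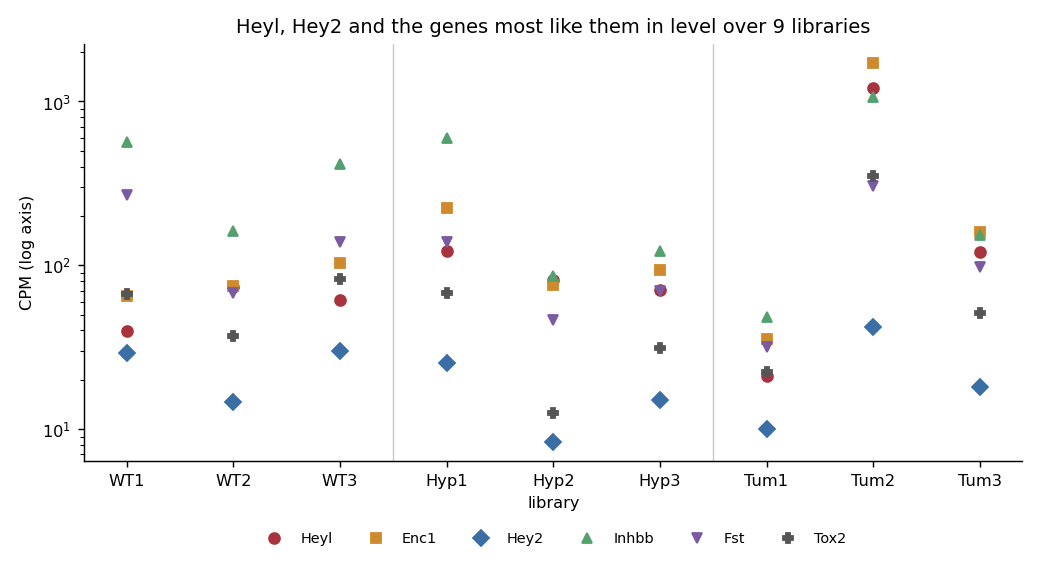
Level in CPM (vertical log axis) of Heyl, Hey2 and 4 of the genes most like them in each of the 9 libraries (horizontal axis; WT, Hyp and Tum are wild type, hyperplasia and tumour). In tumour library 2 Heyl (1213 CPM) and Enc1 (1719 CPM) stand far above their levels in the other 8 libraries. Inhbb, Fst and Tox2 are at their highest there as well. These 4 genes were chosen for their likeness to Heyl or Hey2, so their high values there follow from the choice.

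In wild type the order of levels in TPM was led by Hes1 (38.5 ± 10.3 TPM, SD, n = 3), followed by Heyl (21.1 ± 9.87), Notch2 (19.4 ± 12.5), Hey2 (15.2 ± 5.49), Notch3 (10.997 ± 7.13), Jag2 (9.48 ± 3.73), Jag1 (8.01 ± 2.89), Dll4 (6.52 ± 0.976), Notch1 (6.23 ± 3.85) and Hey1 (5.43 ± 1.88). Only Hes1 had values that did not overlap with those of the next gene. In hyperplasia Hes1, Heyl and Notch2 again led, at 47.4 ± 16.2, 35.5 ± 11.1 and 27.8 ± 1.298 TPM, and Notch2 lay above Jag1, the next gene (11.5 ± 3.70 TPM), without overlap. In tumours Notch2 (27.8 ± 3.26 TPM) lay below Hes1 (47.7 ± 12.8 TPM) and above Hey2 (11.9 ± 5.30 TPM), in both cases without overlap. The mean of Heyl, 107 TPM, rested on 266 TPM in library 2, with 7.27 and 46.5 TPM in libraries 1 and 3. Notch3, the fifth in the wild types, was the last of the 10 in tumours at 3.07 ± 0.728 TPM, though its values overlapped with those of Notch1, the next above it.

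Genes most like the receptors and the other targets over the 9 libraries were Sf3b1, Zc3h12c and Clock for Notch1 (r = 0.98 to 0.99), Ipo5, Stau1 and Cux1 for Notch2 (0.98 to 0.99) and St8sia4, Slc9a9 and Ndrg4 for Notch3 (0.98 to 0.99). For Jag1 they were Exoc5, Cpsf6 and Yipf6 (0.95 to 0.97), for Jag2 Casp1, Polk and Mosmo (0.96 to 0.97), for Hes1 Arfrp1, Ptpn2 and Ryk (0.947 to 0.955) and for Hey1 Eif1, Ube2w and Ccdc25 (0.94 to 0.95). These were the 3 highest of 11571 genes, the 12087 averaging 5 CPM or more without predicted loci and clones, over only 9 libraries, which also share the differences in length described above, so these are descriptions. Without wild-type library 1 the correlation was 0.88 for Stau1 and Notch2 and also for Ccdc25 and Hey1. Without tumour library 1 Jag1 had 0.86 with Exoc5, 0.85 with Cpsf6 and 0.88 with Yipf6.

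Beyond the 10 genes, a list of 48 other genes of the pathway was described, of which 44 passed the low-count filter. None passed the test in any comparison (edgeR QL), and for tumour against wild type the smallest adjusted p was 0.0553. The DESeq2 Wald test called 7 of the 44 in that comparison, beside 10.9% of all genes, and 0 in the other comparisons, and limma-voom called 0 in all 3. At an unadjusted p under 0.05 there were 10 of 44 for tumour against wild type (6 higher and 4 lower), beside 20.1% of all genes, and 4 of 44 for tumour against hyperplasia, all higher, beside 14.1% and 4.71% for higher alone. There was 1 for hyperplasia against wild type, beside 3.53%. Their median log2 fold change for tumour against wild type was 0.20, beside −0.26 for the 10 genes and 0.01 for all genes tested.

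RBPJ, the DNA-binding partner of all Notch receptors, is encoded by Rbpj. Its level was 62.4 ± 13.1 CPM in the wild types, 65.5 ± 6.16 CPM in the hyperplasias and 64.7 ± 11.5 CPM in tumours (SD, n = 3). Its log2 fold change of tumours against wild type was 0.05 (SE 0.23, 95% interval −0.46 to 0.56), and its sign turned between scalings. Lfng and Mfng encode Fringe glycosyltransferases, which modify the receptors and alter their response to Delta and Jagged ligands. Lfng was read at 10.9, 8.24 and 7.76 CPM in the wild types, 7.17, 6.38 and 7.38 CPM in the hyperplasias and 4.57, 4.10 and 4.96 CPM in tumours, with no overlap between any of the groups. Its difference between tumours and wild type was −0.98 (SE 0.29, edgeR QL adjusted p = 0.109), and on the TPM scale the sign of hyperplasia against wild type turned. Mfng stood at 22.8, 10.2 and 8.22 CPM in the wild types and 5.63, 7.31 and 3.61 CPM in tumours (−1.32, SE 0.44, edgeR QL adjusted p = 0.142), with no overlap, and differed by −0.74 without wild-type library 1. Nrarp, a target that dampens Notch signalling, stood at 18.3, 8.54 and 6.84 CPM in the wild types, 9.53, 8.11 and 3.79 CPM in the hyperplasias and 2.71, 6.63 and 2.52 CPM in tumours. All tumours lay below all wild types (−1.51, SE 0.57, edgeR QL adjusted p = 0.182), though tumour library 2 only just, and the value was −0.96 without wild-type library 1. The DESeq2 Wald test called Lfng and Mfng lower in tumours than in wild type (adjusted p = 0.00737 for Lfng and 0.0459 for Mfng). Rfng, a further Fringe gene of the list, overlapped between tumours and wild type.

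Notch4 was read at 15.5 to 25.2 CPM in the wild types, 12.2 to 20.6 CPM in the hyperplasias and 11.5 to 22.2 CPM in tumours, with overlap (−0.39, SE 0.34 for tumour against wild type, edgeR QL adjusted p = 0.569). That value was −0.75 without tumour library 2, −0.26 without tumour library 1, −0.22 without tumour library 3 and −0.20 without wild-type library 1, so each of these libraries moves it by over 1.5 times. In TPM, which are scaled differently, all tumours lay below all other libraries. On the log2(TPM + 1) scale tumours differed from wild type by −0.94 (limma adjusted p = 0.179). Their difference from hyperplasia was −0.89 on that scale and −0.16 with edgeR QL. Dlk1, a protein related to Delta that is studied in endocrine tissue, was low, at 0.845, 9.83 and 3.79 CPM in the wild types and at 0.728, 0 and 1.43 CPM in tumours, with 0 counts in tumour library 2, where 3 counts would be 0.233 CPM. This floor covers counting error only. Hes5, Hes7, Dll3 and Dlk2 were the 4 genes that did not pass the low-count filter.

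Markers of vessel cells had lower fitted values in the same comparison. All 10 mural and smooth muscle markers had fitted values below 0 for tumour against wild type (median −1.06), and their sum was 1447 to 2693 CPM in the wild types, 2714 to 5991 CPM in the hyperplasias and 582 to 1190 CPM in tumours. Of the 10 endothelial markers, 9 had values below 0 (median −0.96), with sums of 586 to 841, 480 to 655 and 367 to 606 CPM. Of all 16213 genes tested, 7964 had values below 0, with a median of 0.01. In each of these lists 4 of the 10 markers were lower in tumours than in wild type without overlap, beside 13.4% of all genes. None of these markers passed the threshold for tumour against wild type (edgeR QL), and none was at 0 in a whole group. Granulosa cell markers summed to 1450 to 3376 CPM in the wild types, 937 to 2876 CPM in the hyperplasias and 3864 to 4642 CPM in tumours, with 0 of 8 called (edgeR QL). Luteal markers summed to 7207 to 13910 CPM in the wild types and 930 to 1530 CPM in tumours, with 3 of 6 called lower (edgeR QL). Macrophage markers summed to 129 to 217 and 70.1 to 89.8 CPM, with 1 of 5 called lower (edgeR QL). Of all genes tested, 1.6% were called. Theca, stromal fibroblast and surface epithelium markers had medians of 0.35, 0.52 and 1.78 for tumour against wild type, with 0 called (edgeR QL). In bulk tissue, fewer cells of a type and less RNA per cell cannot be told apart, and the part of these cell types in the values of Notch3, Jag2 and the other genes was not tested. Within libraries, Notch3 in TPM over Pdgfrb, the receptor kinase of mural cells and fibroblasts, was 0.189, 0.256 and 0.194 in the wild types, 0.203, 0.248 and 0.194 in hyperplasia and 0.109, 0.157 and 0.122 in tumours. Tumours lay below the other 6 libraries in this ratio. Over Rgs5, a marker of pericytes, the ratio was 0.105 to 0.319 in wild type and 0.0928 to 0.216 in tumours, with overlap. Both markers were picked from the 10 after their values were seen.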

How the data were processed

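RNA was measured in 9 mouse ovary libraries, prepared with a stranded mRNA kit per the labels' protocols. The submitters' processing notes list the tools STAR 2.7.1a, RSEM 1.3.1, Picard 2.8.1 and FastQC, and the build GRCm38. The authors deposited RSEM tables per sample with expected counts and TPM for 55536 genes, all matched to GENCODE M21 symbols. Of the expected counts above 0, 25.6% were not whole (tolerance 1e-06). FPKM values deposited by the authors beside them were not used.

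Expected counts were rounded and fitted in edgeR 4.0.16 (R 4.3.3) over all 9 libraries with TMM scaling, filterByExpr (minimum count 10, total 15) and the quasi-likelihood test. P-values were adjusted by the Benjamini-Hochberg method over the 16213 genes tested, with a threshold of 0.05. SE and 95% intervals were derived from the fold change, the p-value and its degrees of freedom. CPM were computed from these counts, and TPM were used as the authors deposited them. Alternatives were DESeq2 1.42.0 size factors and its Wald test, limma-voom and limma 3.58.1 on log2(TPM + 1) or log2(TPM + 0.1), no low-count filter, only the groups compared, a term for the shared title stem, and each library left out. A length-trend offset, and leaving out both wild-type library 1 and tumour library 2, were chosen after seeing the data. Libraries held 11661820 to 20890487 counts, so that 3 counts correspond to 0.144 to 0.257 CPM, and the 10 genes had 48 to 12435 counts each.

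The 10 genes, the 48 other pathway genes and the marker lists were chosen with earlier results of these data known. Named beside the 10 genes were Foxl2, Notch4, Dll1, Dlk1, Rbpj, Nrarp, Lfng, Mfng and, for each of the 10, the 3 genes with the highest Pearson correlation of log2(CPM + 1) among genes averaging 5 CPM or more, leaving out predicted loci and clones (symbols of Gm and digits, ending in Rik, or like accessions). Beyond this rule, Pdgfrb, Rgs5 and Fshr from the marker lists were named after their values were seen.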

Additional observations from a re-analysis of the deposited data

How the results depend on the processing

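Of 1026 values (18 named genes, 3 comparisons, 19 alternatives), 951 kept their direction and their side of the threshold, 7 passed it only in an alternative, and 68 turned sign, none of more than 0.66 in size; the cause was not tested. For tumour against wild type, the DESeq2 Wald test called 3 of the 10 genes and 7 of the other pathway genes (10.9% of all genes). Without the low-count filter 1 of the 10 was called (2.5% of all genes), and the length-trend offset called 1 of the 10 and 1 other pathway gene (3.46%). Leaving out 1 library called 0 to 1 other pathway genes, the 1 being Mib2 without hyperplasia library 3 (2.43%). No paired analysis was possible because the labels give no replicate numbers (those used here only name libraries) and only 1 pair of libraries shares a title stem, for which a fit with a term was run. Signs turned as follows, in log2 units. On log2(TPM + 1) and log2(TPM + 0.1), Rbpj gave −0.077 and −0.081 for tumour against wild type. For hyperplasia against wild type these scales gave 0.045 and 0.067 for Notch3, 0.051 and 0.052 for Dll4, 0.145 and 0.17 for Hey1, and 0.054 and 0.063 for Lfng. For tumour against hyperplasia they gave −0.0022 and −0.0024 for Notch2, and −0.077 and −0.075 for Dll1. With the title stem term, Hey2 gave 0.022 for tumour against wild type, and for hyperplasia against wild type Notch3 gave 0.029, Dll4 0.091, Hes1 −0.069 and Foxl2 −0.086. With limma-voom, Hey1 gave 0.12 for hyperplasia against wild type. With length-trend offsets, Hey1 gave 0.0026 and Rbpj −0.12 for hyperplasia against wild type, and Rbpj 0.13 for tumour against hyperplasia. Without both wild-type library 1 and tumour library 2, Hey1 gave 0.19 for tumour against wild type. In the same setting Notch1 gave −0.012, Dll4 0.06, Hey1 0.66 and Rbpj −0.098 for hyperplasia against wild type, and Hey2 −0.24, Heyl −0.39, Dll1 −0.24 and Rbpj 0.098 for tumour against hyperplasia, where Dll4 (−0.86) and Notch4 (−0.54) kept their sign. Leaving out 1 library gave, for tumour against wild type, −0.0062 to 0.82 for Hes1, −0.49 to 0.57 for Hey1, −0.81 to 0.29 for Hey2 and −0.11 to 0.19 for Rbpj. For hyperplasia against wild type it gave −0.011 to 0.64 for Notch1, −0.46 to 0.42 for Notch3, −0.38 to 0.11 for Dll4, −0.23 to 0.62 for Hes1, −0.36 to 0.66 for Hey1, −0.16 to 0.58 for Foxl2, −2.98 to 0.31 for Dlk1 and −0.09 to 0.17 for Rbpj. For tumour against hyperplasia it gave −0.83 to 0.0055 for Dll4, −0.054 to 0.48 for Hes1, −0.44 to 0.16 for Hey1, −0.22 to 1.00 for Hey2, −0.37 to 2.87 for Heyl, −0.52 to 0.013 for Notch4, −0.21 to 0.60 for Dll1, −2.86 to 0.27 for Dlk1 and −0.11 to 0.12 for Rbpj. With 3 libraries a group and a common biological coefficient of variation of 0.432, small differences could not be called; where an arm kept 2 libraries the fit pooled the spread over groups.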

Other observations

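Further genes of the pathway that the comparisons above do not describe had tumour libraries apart from wild type. Of the 44 tested, 14 had no overlap between tumours and wild type, 10 higher and 4 lower, beside 24.1% of all genes tested. None passed the threshold with the edgeR quasi-likelihood test. Among the higher ones were Adam17, which encodes a protease able to cleave Notch, the gamma-secretase subunits Ncstn and Aph1b, the glycosyltransferase Poglut1, the nuclear factors Maml3, Snw1 and Tle4, and the ubiquitin ligases Mib2 and Dtx1. These genes were named after their values were seen. Ncstn differed by 0.75 (SE 0.22, edgeR quasi-likelihood, Benjamini-Hochberg adjusted p = 0.109), Maml3 by 1.17 (SE 0.35, edgeR quasi-likelihood, adjusted p = 0.112) and Mib2 by 1.04 (SE 0.22, edgeR quasi-likelihood, adjusted p = 0.0553). Efnb2, which encodes an ephrin ligand of arterial endothelium, differed by −0.66 (SE 0.21, edgeR quasi-likelihood, adjusted p = 0.123).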
